A study of Homo sapiens with 6 samples.

Results

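The caspases are proteases that carry out apoptosis, and the inhibitor of apoptosis proteins (IAPs) are the proteins that hold them in check. The transcripts described here were those of 8 genes chosen by name, of 57905 genes in the count table: the IAPs XIAP, BIRC2, BIRC3 and BIRC6, the IAP antagonist DIABLO, and the initiator caspases CASP2, CASP8 and CASP9. RNA-SEQ had been done on NALM6 cells, an established human line of B cell precursor acute lymphoblastic leukemia. The cells were exposed for 24 h to 500 nM THZ1, a covalent inhibitor of the transcriptional kinase CDK7, or to its solvent DMSO, with 3 libraries for each treatment and no other agent or genetic change named in the labels. All libraries came from 1 cell line, and the labels do not say whether the replicates were separate cultures. The study's methods speak of independent experiments for its data in general, without naming RNA-SEQ. The p-values measure the spread between these libraries, which may be technical.

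Apoptosis has a mitochondrial route, in which CASP9 is activated on an APAF1 platform, and a death receptor route, in which CASP8 is activated. Both lead to further caspases that cut proteins throughout the cell. XIAP binds and blocks CASP9 directly, while BIRC2 and BIRC3 (cIAP1 and cIAP2) are ubiquitin ligases that act mainly on RIPK1, the TRAF proteins and the NF-kB pathway. DIABLO (SMAC) is released from mitochondria and frees caspases by occupying the IAPs.

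The libraries held 7876402 to 11164840 counted reads, fewer in the THZ1 libraries (at most 8314306) than in the DMSO libraries (at least 11015480), and 3 counts corresponded to at most 0.415 CPM (counts divided by the TMM-scaled library total, the unit used throughout). All 10 markers of B cell precursors, such as PAX5 and VPREB1, were above 3 counts in every library. Their summed level was 3890 to 4050 CPM with DMSO and 2095 to 2169 CPM with THZ1. Of 11 markers of other cell types that could be matched, 6 were at or below 3 counts in every library. Their summed level was 7.79 to 9.01 CPM with DMSO and 33.2 to 34.1 CPM with THZ1, with CD14, CSF1R and COL1A1 called higher. LYZ was called lower (edgeR adjusted p = 0.036), but its libraries overlapped and the call was lost with DESeq2, RLE or upper quartile factors, a replicate block and 4 of the 6 fits without 1 library. The part of these genes in the differences below was not tested. In bulk libraries, fewer cells of a type and less RNA per cell cannot be told apart, and these relative levels give no amount of RNA per cell.

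Of the 8 transcripts, 7 had enough counts to be tested and 6 differed between treatments. DIABLO, BIRC2, CASP2 and CASP8 rose with THZ1, XIAP and CASP9 fell, and BIRC6 did not pass the test. BIRC3 was too low to test. Calls were made by edgeR's quasi-likelihood test at a Benjamini-Hochberg adjusted p below 0.05 over all 16622 genes tested. By that rule 84.5% of all genes were called, 43.5% higher and 41.1% lower, so a call in 6 of 7 was near the background. Among the 7, 2 (DIABLO and BIRC2) were called higher with a log2 fold change of at least 1.5, against 24.6% of all genes, and 0 were called lower with one of at most -1.5, against 12.9%. The 3 THZ1 and the 3 DMSO libraries did not overlap for 6 of the 7, against 84.7% of all genes. The median log2 fold change was 0.27 over the 7 and 0.03 over all genes tested.

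**Figure D1:**
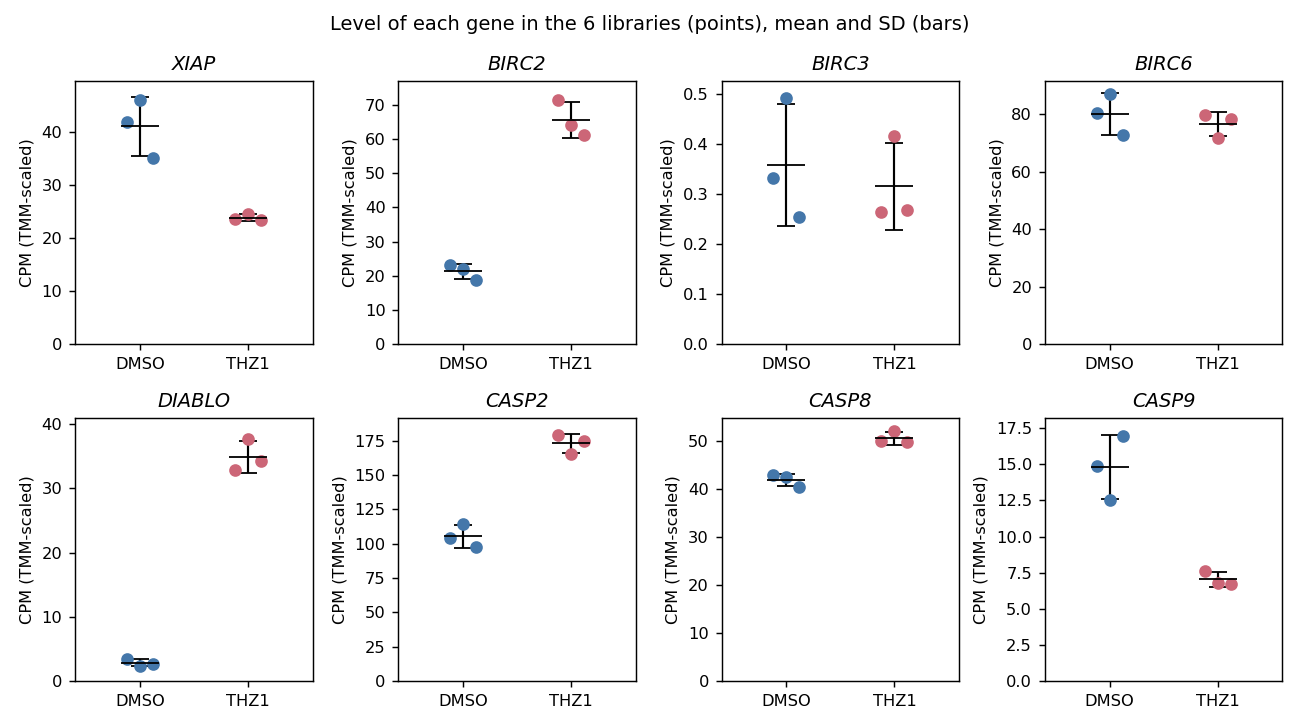
Level of the 8 transcripts in each library, in CPM after TMM scaling (vertical axes, each from 0). Points are single libraries and bars the mean and SD of 3 libraries. The DIABLO points lie between 2.38 and 3.39 CPM with DMSO and between 32.9 and 37.7 CPM with THZ1, while the BIRC6 points of both treatments overlap.

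XIAP, the only member of the family known as a strong direct inhibitor of caspases, stood at 42.0, 46.1 and 35.2 CPM in the 3 DMSO libraries and at 23.7, 24.6 and 23.4 CPM in the 3 THZ1 libraries. Every THZ1 library was below every DMSO library. The THZ1 libraries were the more alike of the 2 groups, which held over the genes as a whole and is not particular to XIAP. The mean went from 41.1 ± 5.49 CPM to 23.9 ± 0.654 CPM (SD, n = 3 each), a log2 fold change of -0.78 (SE 0.11, edgeR adjusted p = 9.2e-08). XIAP lies on chromosome X at 122993562-123047822 of GRCh37, plus strand, and shares no exon base with another annotated gene. The nearest tested protein-coding genes on each side, THOC2 and STAG2, were also called lower, with log2 fold changes of -0.98 and -0.73.

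BIRC2 stood at 23.1, 22.0 and 18.8 CPM with DMSO and at 71.4, 64.2 and 61.2 CPM with THZ1. The lowest THZ1 library was far above the highest DMSO library. The mean rose from 21.3 ± 2.22 to 65.6 ± 5.23 CPM (SD, n = 3 each), which was 3.08-fold with a 95% confidence interval of 2.67 to 3.54 (log2 1.62, SE 0.10, edgeR adjusted p = 8.3e-16).

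BIRC3, the closest relative of BIRC2 and its neighbour on chromosome 11, was hardly detected. It had 4, 6 and 3 counts in the DMSO libraries and 2, 3 and 2 counts in the THZ1 libraries. Scaled for library size, the THZ1 level was 0.872 times the DMSO level, and the exact 95% interval of 0.295 to 2.35, which covers counting error only, left neither direction detectable at this depth. The 2 genes lie 7807 bp apart on the plus strand, BIRC3 at 102188215-102210134 and BIRC2 at 102217942-102249401. TMEM123, 17661 bp beyond BIRC2 on the opposite strand, rose by 0.62 on the log2 scale (SE 0.07, edgeR adjusted p = 1.3e-09). ARHGAP42, the nearest tested protein-coding gene on the other side at 1323542 bp from BIRC3, was called higher at log2 1.12 (SE 0.25), a direction that flipped in the deposited FPKM values. No THZ1 library held more than 3 counts of BIRC3, so no ratio of BIRC3 to BIRC2 is given.

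BIRC6, a very large IAP that joins ubiquitin-conjugating and ligase activity in 1 protein, stood at 80.6, 87.0 and 72.7 CPM with DMSO and at 79.8, 71.8 and 78.5 CPM with THZ1. The groups overlapped. The log2 fold change was -0.06 with a 95% confidence interval of -0.23 to 0.11 (edgeR adjusted p = 0.48). Its sign was not stable, since DESeq2 gave 0.01 and edgeR with upper quartile factors 0.13, while library sizes alone gave -0.31 and passed the threshold (adjusted p = 0.0015). The nearest tested protein-coding genes on each side of BIRC6, YIPF4 and TTC27, were both called lower, at log2 fold changes of -1.37 and -1.30. An antisense gene within BIRC6, BIRC6-AS1, rose from 0.222 ± 0.127 to 3.31 ± 0.587 CPM (SD, n = 3 each) but shares 49 exon bases with it. Without a stated strand setting, reads on those bases cannot be told apart.

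Set against each other per kilobase of exon, XIAP, BIRC2 and BIRC6 were at like levels with DMSO. They stood at 4.31 ± 0.577, 4.72 ± 0.491 and 4.32 ± 0.389 CPM per kb (SD, n = 3), and their libraries overlapped. With THZ1 they separated into BIRC2 at 14.5 ± 1.16, BIRC6 at 4.14 ± 0.230 and XIAP at 2.51 ± 0.0687 CPM per kb (SD, n = 3), with no overlap between neighbours in that order. BIRC2 made up 35.2% ± 1.5 of the summed level of the 4 IAP transcripts with DMSO and 68.4% ± 1.51 with THZ1 (SD, n = 3 each). XIAP went from 32.1% ± 1.13 to 11.9% ± 0.780, BIRC6 from 32.3% ± 0.964 to 19.5% ± 1.18, and BIRC3, from at most 6 counts, was at most 0.454% in any library. The summed level of the 4 was 13.4 ± 1.40 CPM per kb with DMSO and 21.2 ± 1.25 with THZ1 (SD, n = 3 each), so the total was higher while XIAP was lower. These shares are levels per length within a library and do not depend on scaling between libraries.

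**Figure D2:**
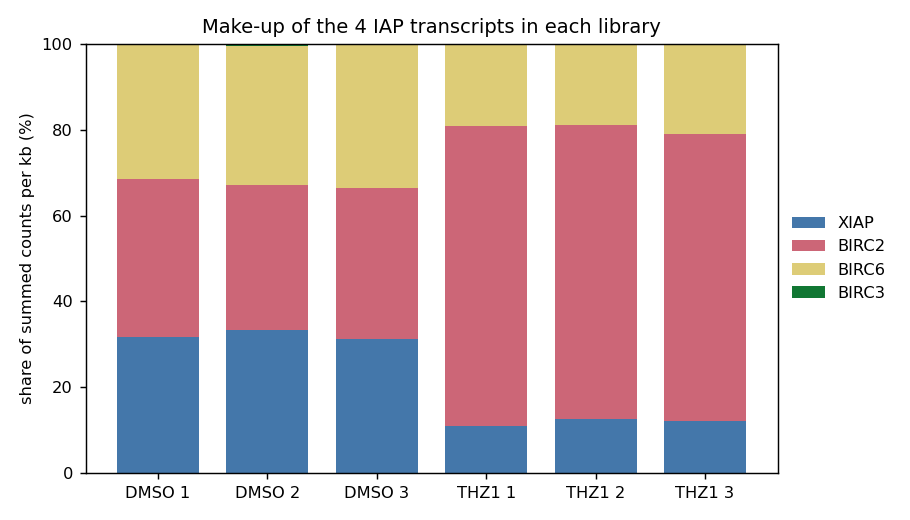
Make-up of the 4 IAP transcripts in each library: stacked bars give the share of each gene in their summed counts per kilobase of exon (vertical axis, %). BIRC2 takes 33.7 to 36.7% in the DMSO libraries and 66.8 to 69.8% in the THZ1 libraries, and BIRC3 is too small to see.

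DIABLO, the antagonist that binds these IAPs, had the highest fold change of the 7 genes tested. Among all genes tested, the log2 fold change of DIABLO was at percentile 88.7 and that of BIRC2 at percentile 76.5. DIABLO started from a low level, with 41, 29 and 32 counts in the DMSO libraries (percentile 26.5 of the DMSO levels). DIABLO stood at 3.39, 2.38 and 2.7 CPM with DMSO and at 32.9, 37.7 and 34.2 CPM with THZ1. No DMSO library came near the lowest THZ1 library. The mean rose 12.3-fold, from 2.82 ± 0.517 to 34.9 ± 2.46 CPM (SD, n = 3 each; log2 3.62, SE 0.16, edgeR adjusted p = 9.2e-20). In the deposited FPKM values it was 2.16, 1.56 and 1.83 with DMSO and 11.4, 13.3 and 12.1 with THZ1, a rise of log2 2.22 on the log2(FPKM + 1) scale and 2.67 on the log2(FPKM + 0.1) scale with limma.

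What the DIABLO counts measured is limited by the annotation of its locus. DIABLO lies on chromosome 12 at 122692210-122712003 of GRCh37, minus strand. All but its 3′ end overlaps the span of a read-through gene, ENSG00000256861, that joins exons of VPS33A and DIABLO on the same strand. In GENCODE 44, 1139 of the 2395 exon bases of the protein-coding DIABLO transcripts also belong to the read-through gene and 970 to B3GNT4 on the opposite strand, so that 54.7% are shared. None of the 2748 exon bases of the read-through gene lies outside DIABLO and VPS33A (0 bases), and it had 0 counts in all 6 libraries. The default of htseq-count, the counter named for these files, leaves out a read that fits more than 1 gene, but the mode and annotation used were not given in the sources used here. With that default and these exons, no read could be counted for the read-through gene at any level. Its 0 counts would then give no upper bound. Of all DIABLO exon bases, 65.6% occur only in transcripts that are not annotated as protein coding, 5 of them with a retained intron. The counts therefore do not tell protein-coding from other DIABLO transcripts, and the part of each in the rise was not tested. Of the genes that share this locus, VPS33A fell by 0.84 on the log2 scale (SE 0.15, edgeR adjusted p = 7.6e-06) and B3GNT4 was 43.4 ± 3.2 CPM with DMSO and 47.4 ± 3.56 with THZ1 (SD, n = 3 each; not called). Both were named after their values had been seen.

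**Figure D3:**
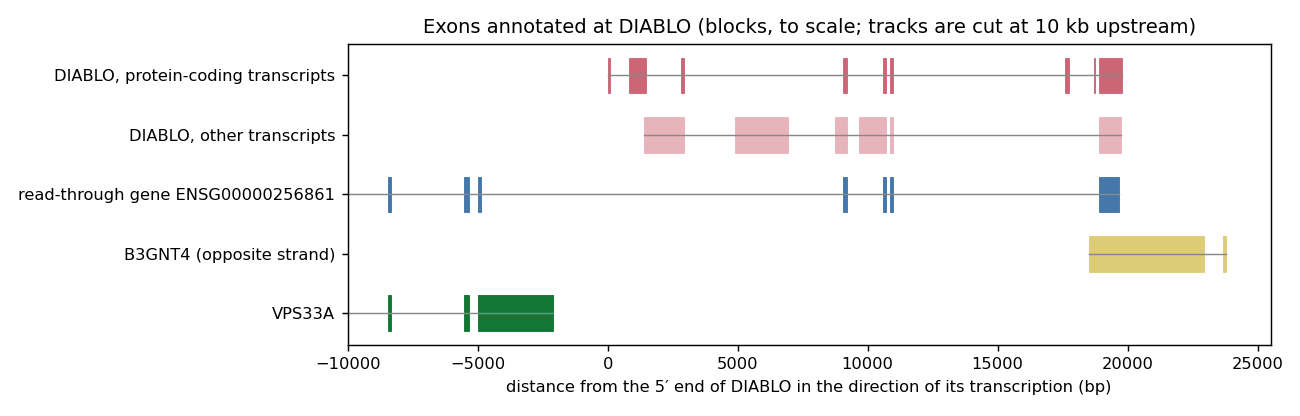
Exons annotated at DIABLO in GENCODE 44 (blocks, to scale), by distance in bp from the 5′ end of DIABLO in its direction of transcription, with VPS33A and the read-through gene cut at 10 kb upstream. The blocks of the read-through gene coincide with DIABLO or VPS33A exons. The last exon blocks of the protein-coding DIABLO transcripts, at 18691-18745 and 18879-19793 bp, also lie under B3GNT4.

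The log2 ratio of DIABLO to XIAP, antagonist to target, was -3.18, -3.82 and -3.25 in the DMSO libraries and 0.93, 1.06 and 1.00 in the THZ1 libraries, taken per kilobase of exon. The means of -3.42 ± 0.35 and 1.00 ± 0.07 (SD, n = 3 each) differed by 4.42, or 21.3-fold, with an exact two-sided permutation p of 0.1, the smallest this design allows. The ratio lay below 1 in every DMSO library and above 1 in every THZ1 library. It carries the limits of the DIABLO counts given above.

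Of the initiator caspases, CASP2 was the most abundant transcript of all 8, and its protein is activated on a platform built by PIDD1 and CRADD. It stood at 104, 114 and 97.6 CPM with DMSO and at 179, 166 and 175 CPM with THZ1, without overlap. The log2 fold change was 0.72 (SE 0.07, edgeR adjusted p = 2.0e-10). Per kilobase it was 13.1 ± 1.06 CPM per kb with DMSO and 21.6 ± 0.871 with THZ1 (SD, n = 3 each), the highest in both. CASP2 lies on chromosome 7 at 142985308-143004789, plus strand, and 46.3% of its exon bases occur only in transcripts not annotated as protein coding.

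CASP8, the initiator of the death receptor route, stood at 42.7, 42.4 and 40.4 CPM with DMSO and at 49.8, 52.0 and 49.6 CPM with THZ1. The groups did not overlap, although the difference was small, at 1.21-fold with a 95% confidence interval of 1.07 to 1.37 (log2 0.27, SE 0.09, edgeR adjusted p = 0.0055). The call was lost with library sizes alone (log2 0.02, adjusted p = 0.82), without a filter on low counts and in the deposited FPKM values. CASP8 spans 202098166-202226559 on chromosome 2, plus strand, and 41.3% of its exon bases occur only in transcripts not annotated as protein coding. CASP10, its relative 4014 bp away on the same strand, was 7.80 ± 0.574 CPM with DMSO and 7.76 ± 2.31 with THZ1 (SD, n = 3 each), a log2 fold change of -0.01 that was not called. Its sign flipped with DESeq2 and with other scaling factors, while CASP10 was called lower in the deposited FPKM values (limma). On the other side of CASP8, TRAK2 fell by 1.98 on the log2 scale.

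CASP9, the initiator of the mitochondrial route, stood at 14.9, 12.5 and 17.0 CPM with DMSO and at 7.63, 6.78 and 6.68 CPM with THZ1. Every THZ1 library lay below the DMSO range. The mean went from 14.8 ± 2.21 to 7.03 ± 0.518 CPM (SD, n = 3 each), a log2 fold change of -1.07 (SE 0.16, edgeR adjusted p = 5.7e-07). CASP9 lies on chromosome 1 at 15817327-15853029, minus strand. It shares 101 exon bases with CELA2B on the opposite strand, which had at most 6 counts in any library. The nearest tested protein-coding genes on each side, EFHD2 and DNAJC16, were both called lower, each at a log2 fold change of -2.26. A change in the ratio of CASP9 to XIAP, the protein that binds it, could not be told from the spread between libraries. The log2 ratio per kilobase was -0.62 ± 0.41 with DMSO and -0.91 ± 0.12 with THZ1 (SD, n = 3 each). The difference of -0.29 had an exact two-sided permutation p of 0.4, and the libraries overlapped. It rested on single libraries, at -0.08 without DMSO replicate 3 and -0.49 without DMSO replicate 2 (exact two-sided permutation p of 0.7 and 0.1). With 1 library left out, 0.1 is the smallest p this test allows. The summed level of the 3 caspases was 21.7 ± 0.767 CPM per kb with DMSO and 29.9 ± 0.780 with THZ1 (SD, n = 3 each), most of it CASP2.

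**Figure D4:**
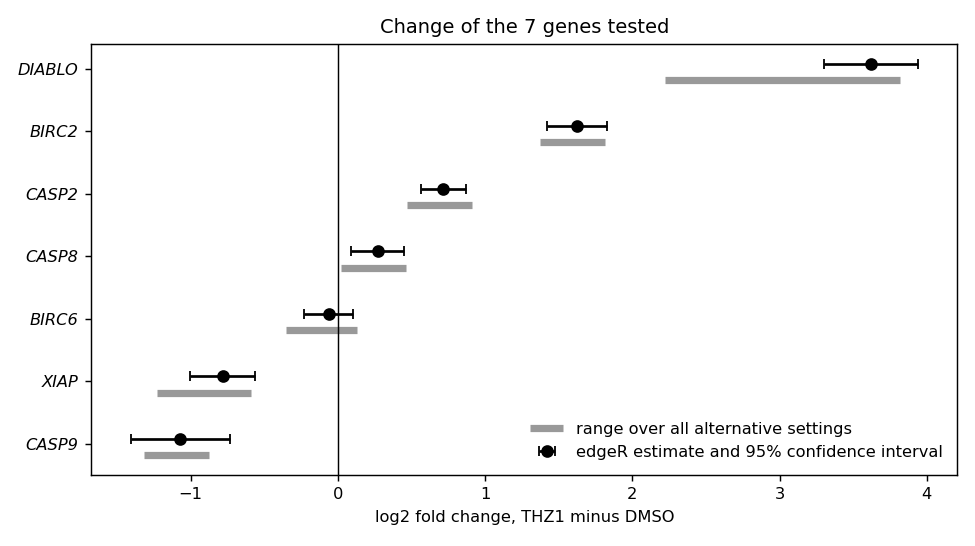
Log2 fold change (THZ1 minus DMSO, horizontal axis) of the 7 genes tested. Points and whiskers give the edgeR estimate and its 95% confidence interval, and grey bars the range over all alternative settings, including the leaving out of single libraries. DIABLO and BIRC2 stay above 0 and XIAP and CASP9 below 0 throughout, while the BIRC6 bar crosses 0.

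The order of the levels per kilobase with DMSO was CASP2, CASP8, BIRC2, BIRC6, XIAP, CASP9, DIABLO and BIRC3. Neighbours overlapped only for BIRC2 with BIRC6 and for BIRC6 with XIAP. With THZ1 the order was CASP2, BIRC2, CASP8, DIABLO, BIRC6, XIAP, CASP9 and BIRC3, and no neighbours overlapped. The order depends on the length used. Per kilobase of the longest transcript with THZ1, CASP8 (17.2 CPM per kb) stood above BIRC2 (16.1) and DIABLO was at 11.3, while the other places were as given. Per merged exon length, DIABLO moved from the seventh place, at 0.406 ± 0.0743 CPM per kb, to the fourth, at 5.02 ± 0.354 CPM per kb (SD, n = 3 each).

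The start sites of the pair that rose most and of the pair that fell are shown because CDK7 is a kinase that works at the start of transcription. All 8 genes matched the RefSeq promoter windows (GRCh38.p14, a different build from that of the counts), each from 250 bases before to 50 after a listed start, with 19 windows in all. The first window listed for each of these genes is written 5′ to 3′ on the gene's strand. Capitals mark the motifs found, on either strand. The GC box was searched for as GGGCGG, and boxes that overlap run together in capitals. The E-box was searched for as CACGTG, which reads alike on both strands. The TATA box was searched for as TATAAA, and the CCAAT box by the letters of its name.
DIABLO: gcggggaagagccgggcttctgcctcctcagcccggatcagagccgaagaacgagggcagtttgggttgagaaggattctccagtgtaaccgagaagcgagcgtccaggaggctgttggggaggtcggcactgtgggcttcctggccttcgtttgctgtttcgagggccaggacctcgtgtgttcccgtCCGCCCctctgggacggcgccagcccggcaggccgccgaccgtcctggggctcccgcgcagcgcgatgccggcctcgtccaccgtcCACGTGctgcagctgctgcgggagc
BIRC2: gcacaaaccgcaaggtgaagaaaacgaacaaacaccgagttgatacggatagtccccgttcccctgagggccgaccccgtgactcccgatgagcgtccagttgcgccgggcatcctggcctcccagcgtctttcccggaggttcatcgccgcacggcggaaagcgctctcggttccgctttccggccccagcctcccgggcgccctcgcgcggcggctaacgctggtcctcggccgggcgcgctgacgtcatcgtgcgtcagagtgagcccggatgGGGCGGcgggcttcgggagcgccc
XIAP: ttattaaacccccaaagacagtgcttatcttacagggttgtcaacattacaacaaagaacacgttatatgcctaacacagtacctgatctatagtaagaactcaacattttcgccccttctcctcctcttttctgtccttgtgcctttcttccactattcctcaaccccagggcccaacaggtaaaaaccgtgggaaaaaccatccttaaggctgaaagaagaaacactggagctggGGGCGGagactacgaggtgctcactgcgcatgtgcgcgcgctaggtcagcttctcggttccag
CASP9: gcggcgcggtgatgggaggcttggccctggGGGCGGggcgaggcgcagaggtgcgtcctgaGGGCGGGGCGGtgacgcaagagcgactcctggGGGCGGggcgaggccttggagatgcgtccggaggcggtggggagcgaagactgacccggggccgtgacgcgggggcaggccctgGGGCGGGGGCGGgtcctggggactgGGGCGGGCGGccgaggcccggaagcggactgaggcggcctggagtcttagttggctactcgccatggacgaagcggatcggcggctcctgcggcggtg
The windows lie at chr12:122226519-122226818 (DIABLO, minus strand), chr11:102346964-102347263 (BIRC2, plus strand), chrX:123859458-123859757 (XIAP, plus strand) and chr1:15524166-15524465 (CASP9, minus strand). The CASP9 window held 8 GC boxes, and those of DIABLO, BIRC2 and XIAP held 1 each, with 1 E-box in that of DIABLO. A GC box was thus in both the pair that rose and the pair that fell. The counts depend on the window taken. In the order listed, the GC boxes numbered 1, 1, 1 and 2 for DIABLO, 1 and 3 for BIRC2, 1, 0 and 2 for XIAP and 8 and 9 for CASP9. Only the first DIABLO window held an E-box. Among the first-listed windows of all 8 genes, 7 held a GC box, 1 an E-box, 1 a CCAAT box and 0 a TATA box. Among all 19 listed windows, some of which overlap, 13 held a GC box, 1 an E-box, 5 a CCAAT box and 1 a TATA box. Of 35116 promoter windows of the genome, 44.95% held a GC box, 7.256% an E-box, 34.61% a CCAAT box and 11.53% a TATA box. A match describes the letters and is not a binding site.

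The other genes of the pathway were taken from 7 lists that hold 64 distinct genes, of which 57 were tested, 24 were called higher, 25 lower and 8 were not called. Of the other caspases, 6 of 9 were tested, 5 were called lower and 0 higher, with a median log2 fold change of -0.92. The median was between -1.28 and -0.52 under the alternatives run. CASP1, an inflammatory caspase, fell by 3.52 on the log2 scale (6.29 ± 0.705 to 0.537 ± 0.261 CPM, SD, n = 3 each). CASP10, given above, was the highest of the list and was not called.

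Of the other IAP family members, 3 of 4 were tested and 2 were called higher and 1 lower, with a median log2 fold change of 0.42 (0.18 to 2.08 under the alternatives). BIRC5 (survivin), which acts in chromosome segregation as well, rose from 194 ± 9.59 to 260 ± 13.6 CPM (SD, n = 3 each; log2 0.42, SE 0.07, edgeR adjusted p = 1.4e-06). NAIP, a sensor of bacterial proteins, fell by 1.77 on the log2 scale from a low level of 2.33 ± 0.359 CPM (SD, n = 3). BIRC7 had 2, 0 and 0 counts with DMSO and 42, 33 and 45 with THZ1, which was at least 21.6-fold higher when set against a level of 3 counts in each DMSO library.

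Among 5 other IAP antagonists and binding partners, 2 were called higher and 3 lower, with a median log2 fold change of -0.82 (-1.87 to -0.62 under the alternatives). XAF1, which binds XIAP, fell by 3.05 on the log2 scale (37.5 ± 1.27 to 4.53 ± 0.580 CPM, SD, n = 3 each). HTRA2, a mitochondrial protease that binds IAPs as DIABLO does, rose from 85.6 ± 7.31 to 128 ± 3.49 CPM (SD, n = 3 each; log2 0.58, SE 0.08). SEPTIN4, which encodes a further XIAP binder, was the highest of the list at log2 1.45 (SE 0.33, 1.19 ± 0.393 to 3.28 ± 0.282 CPM, SD, n = 3 each). XIAP and its binders therefore did not move in 1 direction.

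Of 11 adaptors that activate caspases and their inhibitors, 5 were called higher, 3 lower and 3 were not called, with a median log2 fold change of 0.12, whose sign turned under some alternatives (-0.13 to 0.31). PIDD1, which builds the platform for CASP2, rose from 90.3 ± 8.0 to 543 ± 5.14 CPM (SD, n = 3 each; log2 2.59, SE 0.07). APAF1, the platform for CASP9, was called higher at log2 0.44 (SE 0.09, edgeR adjusted p = 4.0e-05), a call lost with library sizes alone. CFLAR, which encodes the CASP8 inhibitor c-FLIP, was called higher at log2 1.31 (SE 0.10), a call lost in the deposited FPKM values. BFAR, a membrane protein that binds CASP8, was the lowest at -1.91 (SE 0.11).

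Of 11 signaling partners of BIRC2 and BIRC3, 5 were called higher, 4 lower and 2 were not called, with a median log2 fold change of 0.12 and the same range over the alternatives, since RIPK1 is the middle gene of both lists. TRAF1 was the highest at log2 1.86 (SE 0.20). TRAF3, with which the cIAPs keep the kinase MAP3K14 low, was the lowest at -2.06 (52.1 ± 3.29 to 12.5 ± 1.28 CPM, SD, n = 3 each). Of 15 caspase substrates, 5 were called higher, 7 lower and 3 were not called, and their median was -0.09, also of either sign (-0.49 to 0.10). LMNA was the highest at log2 2.64 (SE 0.22), and DFFA, the inhibitor of the apoptotic nuclease, the lowest at -1.72 (SE 0.09). Of 12 NF-kB target genes, 9 were tested, 7 were called higher and 2 lower, with a median of 1.05 (0.76 to 1.24 under the alternatives). IER3 was the highest, going from 6.34 ± 0.699 to 243 ± 31.0 CPM (SD, n = 3 each; log2 5.26, SE 0.11), and NFKB2 the lowest at -0.54 (SE 0.11). The median of all genes tested was 0.03, and with 84.5% of all genes called, calls within a list say little of the list itself.

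**Figure D5:**
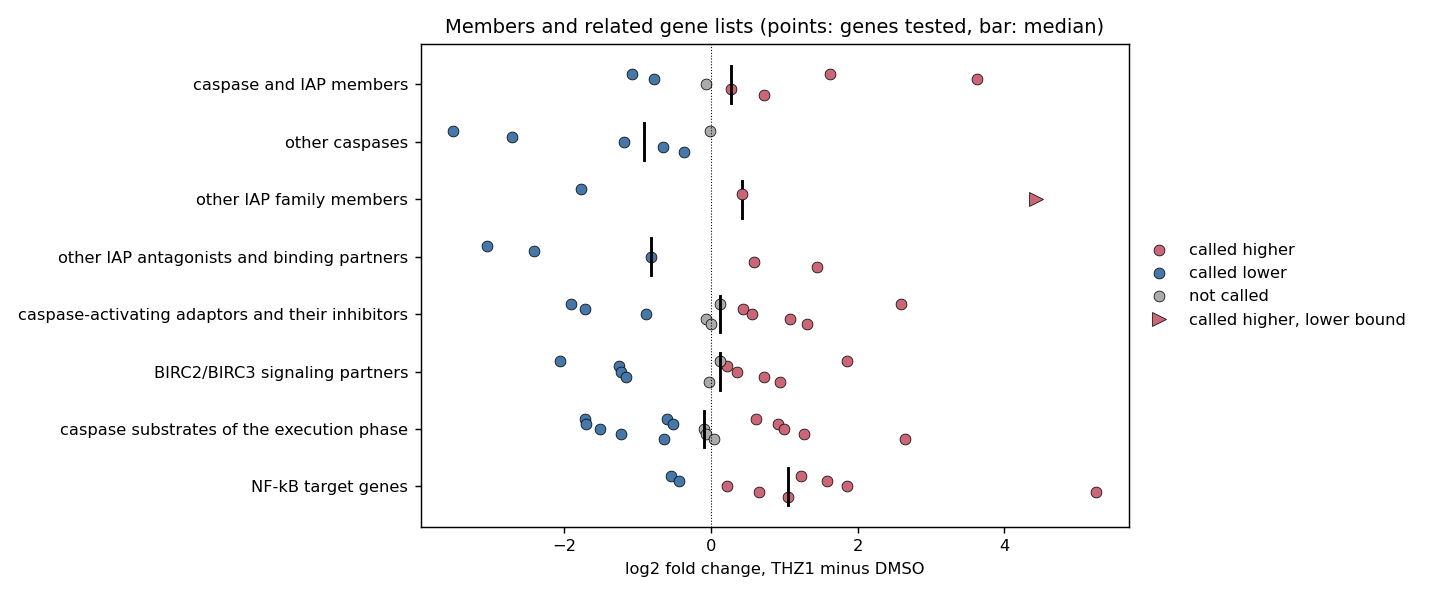
Log2 fold change (THZ1 minus DMSO, horizontal axis) of the tested genes of the caspase and IAP group and of 7 related lists (rows). Points are genes, colored by call, vertical bars are medians, and the triangle is the lower bound of BIRC7. The points of the other caspases lie at or below 0, with CASP10 nearest to it and of either sign under other scalings, and those of the other rows on both sides of 0.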

How the data were processed

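RNA-SEQ counts and FPKM values of 6 NALM6 libraries were used. The authors filtered the reads, mapped them to GRCh37 with STAR and deposited raw gene counts from htseq-count; cutadapt, HTSeq and RSEM are also named in the submitters' processing notes. The annotation and strand setting were not given in the sources used here. A second deposited table holds log2 values, read as log2(FPKM + 1) from RSEM, with a further normalization that its values show and no source names. It holds 6 of the 8 genes (not BIRC3 or CASP9) and was used for an alternative only, after it was taken back to FPKM. Its columns of the authors' own fold changes, p-values and FDR were not used.

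Groups came from the sample titles. Counts were tested with edgeR 4.0.16 (R 4.3.3; quasi-likelihood, TMM factors, filterByExpr with a minimum count of 10 and a total of 15, two-sided, Benjamini-Hochberg over 16622 genes). SE is the log2 fold change divided by the root of F. CPM are TMM-scaled, and levels per kb use the merged exon length in GENCODE 44 lifted to GRCh37. Alternatives were other scaling factors, DESeq2 1.42.0, other filters, a replicate block, leaving out each library, and limma 3.58.1 on log2(FPKM + 1) or log2(FPKM + 0.1). Library totals were 7876402 to 11164840 counts; intervals of counts and floors of 3 counts cover counting error only. Replicates differed by more than sampling noise, so none was counted as a duplicate. The chi-square per gene was 3.03, 4.05 and 9.19 between pairs of DMSO libraries, the last for replicates 2 and 3. Between pairs of THZ1 libraries, which held fewer reads, it was 1.78 to 2.29.

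The members and lists were chosen with earlier results of these data known. Genes named were all 8 members; the highest and lowest tested gene of each list; CASP10, APAF1, CFLAR, HTRA2, XAF1, BIRC5 and NAIP; the tested neighbours of BIRC2, BIRC3 and CASP8; and, for the members with the highest and lowest fold change, the 3 genes most correlated with each. Neighbours are the nearest tested protein-coding genes on each side of a member. Neighbours of other members, the genes sharing the DIABLO, BIRC6 and CASP9 loci, and the markers called were named after their values were seen. CCL3, CCL4 and TRAC had no unique match among the gene names and were not analysed here. Values of some other genes that the rule names are not reported here.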

Additional observations from a re-analysis of the deposited data

How the results depend on the processing

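DIABLO, BIRC2, CASP2, XIAP and CASP9 kept their direction and their call under all alternatives (15 each, 13 for CASP9). Of 103 fold changes of single members under an alternative, 92 kept direction and side of the threshold. BIRC6 changed sign with DESeq2 (0.00562), RLE factors (0.00563), upper quartile factors (0.131) and a minimum of 10 counts per library (0.0705), and was called lower with library sizes alone (-0.312, edgeR adjusted p = 0.00152) and in the FPKM values (-0.348 and -0.323, limma). CASP8 lost its call with library sizes alone (0.0223), no filter (0.184) and the FPKM values (0.0906 and 0.0860). These settings move the median log2 fold change of all genes against TMM by 0.07 (RLE), 0.19 (upper quartile) and -0.25 (library sizes alone). Only 1 member passed a log2 fold change of 1.5 upward with library sizes alone and in both FPKM settings, BIRC2 falling below it. Of all genes, 1821 passed it upward and 1178 downward when each library needed 10 counts, and 6996 upward without a filter, since these change which genes are tested. In the FPKM values the IAP share of XIAP differed by -22.75 percentage points (-20.3 from counts) and that of BIRC2 by 36.4 (33.2 from counts). Leaving out single libraries changed none of these calls: 4 members stayed higher and 2 lower, the range was 3.49 to 3.76 for the log2 fold change of DIABLO and 4.21 to 4.53 for the DIABLO to XIAP difference, and all genes called numbered 7295 to 7488 higher and 6681 to 6899 lower. Same-numbered replicates did not deviate together (Pearson r -0.004, 0.000969 and 0.0206 across genes), so no pairing by number was detected. Such correlations cannot exclude that same-numbered libraries were handled together. With a replicate block 4 members were called higher and 2 lower, as without it. Depth limits BIRC3, with 2 to 6 counts per library.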

Other observations

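Over the 6 libraries, the 3 genes whose log2 CPM followed DIABLO most closely were CARD9, HGS and ENSG00000269292 (Pearson r = 0.9998, 0.9998 and 0.9997), and 2009 genes reached an r of 0.99. For CASP9 they were EEF1D, TMEM161A and ADISSP (r = 0.9997, 0.9989 and 0.9988), and 157 genes reached it. The points share 2 treatments, so any gene with a clear difference between them gives a high r, and these values are a description. The gene with the highest fold change next to a member was LRRC43, beside DIABLO, with at most 1 count in each DMSO library and 15, 21 and 15 counts in the THZ1 libraries, and TMEM139, which ends 166 bp before CASP2 on the same strand, had 5, 10 and 4 counts with DMSO and 31, 34 and 29 with THZ1. Both were chosen after their values were seen. Of 15 neighbours of the 8 genes, which include the member BIRC2, 6 were called higher, 8 lower and 1 was not called. Over all genes tested, 84.5% were called, 43.5% higher and 41.1% lower.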
